A study of Mus musculus with 4 samples.

Results

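Gamma-delta T cells of the type 17 kind, labelled Rorgt gdT by the authors, were 711 of the 15621 labelled T cells of this series. They were taken as all cells that carry this label in the deposited annotation, whose labels had been made from the RNA of the same nuclei. T cells were sorted from mouse AKP tumors, which grow from organoids with engineered cancer mutations, loss of Apc and Trp53 among them, implanted in the cecal wall, and from the normal adjacent cecum, both 4 weeks after transplantation. Mice of both groups of cells therefore bore a tumor, and no cecum of a tumor-free mouse was analysed here. The nuclei were measured with a multiome assay, and its open chromatin reads (ATAC) were used here, from 1 library per tissue. With 1 library per tissue there is no replicate, so no test was made, no p-value is given, and tissue and library cannot be told apart. All intervals are exact, at 95%, and cover counting error only.

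Type 17 gamma-delta T cells are innate-like lymphocytes of the skin, the gut and other barrier tissues. They are programmed in the thymus with factors such as SOX13, MAF and PLZF, and they answer interleukin-23 and interleukin-1 with interleukin-17 without the need for priming by antigen. Cytotoxic gamma-delta T cells share their receptor type but carry granzymes and natural killer receptors. Th17 cells are CD4 alpha-beta T cells that share the interleukin-17 program. Rorgt gdT cells were therefore compared mainly with the labels Cytotoxic gdT (1118 cells) and Th17 (424 cells).

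Promoter sequences of genes of the type 17 program are given first, for the windows around gene starts that are read below. Many accessible sites described below lie kilobases away from these starts and are not printed. The RefSeq bases of the 250 bases before the start are printed 5′ to 3′ on the strand of the gene for both interleukin-17 genes, for the interleukin-23 and interleukin-1 receptors and for the chemokine receptor CCR6. Positions are those of GRCm38.p6, the assembly behind mm10. Capitals mark AGGTCA, the letters shared by many nuclear receptor elements, or its reverse complement TGACCT.
Il17a, chr1:20730655-20730904, plus strand: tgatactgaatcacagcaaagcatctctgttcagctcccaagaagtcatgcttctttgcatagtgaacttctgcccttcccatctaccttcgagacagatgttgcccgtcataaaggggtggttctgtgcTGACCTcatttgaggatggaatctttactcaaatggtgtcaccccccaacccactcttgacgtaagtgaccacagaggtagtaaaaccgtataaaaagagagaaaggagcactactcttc
Il17f, chr1:20784271-20784520, minus strand: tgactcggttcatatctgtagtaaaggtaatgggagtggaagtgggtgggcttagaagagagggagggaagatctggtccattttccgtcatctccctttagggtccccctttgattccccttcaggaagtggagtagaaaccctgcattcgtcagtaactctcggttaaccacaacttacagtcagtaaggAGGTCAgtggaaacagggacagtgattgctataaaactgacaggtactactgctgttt
Il23r, chr6:67491856-67492105, minus strand: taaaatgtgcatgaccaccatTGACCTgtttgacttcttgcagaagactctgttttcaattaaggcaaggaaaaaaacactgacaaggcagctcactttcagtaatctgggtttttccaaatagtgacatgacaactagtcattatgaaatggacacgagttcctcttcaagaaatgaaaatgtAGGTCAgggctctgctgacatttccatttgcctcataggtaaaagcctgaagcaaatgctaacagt
Il1r1, chr1:40224830-40225079, plus strand: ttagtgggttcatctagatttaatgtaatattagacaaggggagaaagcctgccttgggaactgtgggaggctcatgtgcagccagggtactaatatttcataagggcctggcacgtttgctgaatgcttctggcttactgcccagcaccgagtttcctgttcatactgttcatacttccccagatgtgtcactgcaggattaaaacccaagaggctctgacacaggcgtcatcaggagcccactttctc
Ccr6, chr17:8235793-8236042, plus strand: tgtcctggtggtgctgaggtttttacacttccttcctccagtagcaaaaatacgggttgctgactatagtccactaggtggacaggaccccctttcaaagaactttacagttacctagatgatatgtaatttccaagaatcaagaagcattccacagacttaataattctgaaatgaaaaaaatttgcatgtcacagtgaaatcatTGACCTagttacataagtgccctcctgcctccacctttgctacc

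Rorgt gdT cells were 438 of the 7155 labelled cells of cecum, or 6.12% (5.58% to 6.70% by Clopper-Pearson), and 273 of the 8466 of the tumor, or 3.22% (2.86% to 3.62%). Their rank among the 17 labels was 7 in cecum and 12 in tumor. Among the cells of both gamma-delta labels, they were 45.6% in cecum (42.4% to 48.8%) and 31.5% in tumor (28.4% to 34.7%). The type 17 share of gamma-delta T cells was thus lower in tumor library than in cecum library, beyond counting error. Of the Rorgt gdT cells 38.4% lay in tumor library, against 53.2% of the Cytotoxic gdT cells and 69.1% of the Th17 cells.

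The Rorgt gdT cells held 2162164 fragments in cecum (median 3930.5 per cell) and 2125652 in tumor (median 6911 per cell), so the summed depth was about the same in both tissues whereas the depth per cell was higher in tumor. The median over all labelled cells was 4374 and 5846 fragments per cell. Of the Rorgt gdT fragments 44.4% in cecum and 40.9% in tumor lay near a gene end. The libraries shared 84 labelled barcodes, of which 6 belonged to a Rorgt gdT cell in either library and 0 in both. Accessibility of a gene is given as fragments with an end in its span with 5 kb on each side, per 1000000 fragments of the label in that library (FPM). Since windows differ in length, levels are compared between labels, not between genes. A gene was called where its FPM with 1 added was at least 2 times that of the other label in both libraries. Only genes with at least 50 fragments over both labels in each library entered such a count, so a gene could enter through 1 label alone.

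The marker genes were checked against the label first. Trdc (chr14:54142851-54146108), the constant region of the delta chain, had 105 fragments in Rorgt gdT cells of cecum (48.6 FPM, interval 39.7 to 58.8) and 86 in tumor (40.5 FPM, 32.4 to 49.97). Th17 cells had 0 fragments there in cecum, which allows up to 3.44 FPM by a floor of 3 counts and 4.24 FPM by the exact interval, and 0.855 FPM in tumor. Rearrangement of the receptor loci can remove DNA there, so a low Trdc count need not mean closed chromatin. Cytotoxic gdT cells were the label with the highest Trdc level, at 77.8 and 68.0 FPM. On the log2 scale Rorgt gdT cells were below them at -0.68 in cecum (-1.03 to -0.34) and -0.75 in tumor (-1.11 to -0.40), which is under the 2-fold call.

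Il17a (chr1:20730905-20734496), which encodes interleukin-17A, had 85 fragments in cecum (39.3 FPM, 31.4 to 48.6) and 154 in tumor (72.4 FPM, 61.5 to 84.8). Cytotoxic gdT cells had 2 and 10 fragments there (0.665 and 2.39 FPM). Th17 cells stood at 82.7 and 68.0 FPM. In the cecum the Il17a window was less accessible in Rorgt gdT cells than in Th17 cells (log2 ratio -1.07, -1.54 to -0.60), whereas in tumor the ratio was 0.09 (-0.24 to 0.42). The other labels lay below both in either library.

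Depth per cell differed between labels and tissues, so the share of cells with a fragment was also computed for cells thinned to 2000 fragments, as the mean over all ways to thin. A Trdc fragment was then expected in 8.42% of Rorgt gdT cells of cecum and 6.83% of those of the tumor, compared with 13.5% and 12.1% of Cytotoxic gdT cells and 0% and 0.0770% of Th17 cells. Before thinning, 0 of 131 Th17 cells of cecum had a Trdc fragment, which leaves room for a share of up to 2.78%. An Il17a fragment was expected in 7.13% and 13.2% of thinned Rorgt gdT cells, compared with 0.0997% and 0.475% of Cytotoxic gdT cells and 14.01% and 12.04% of Th17 cells. The shares of both genes thus had the same order of labels as the levels. Thinning left out 132 of the 438 cecum cells and 42 of the 273 tumor cells, since they had fewer fragments. Without thinning, Trdc was found in 16.7% and 19.4% of Rorgt gdT cells and Il17a in 13.7% and 36.3%. In ATAC data a cell without a fragment is not a cell with closed chromatin, because the assay reads a part of the open DNA of each cell.

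**Figure D1:**
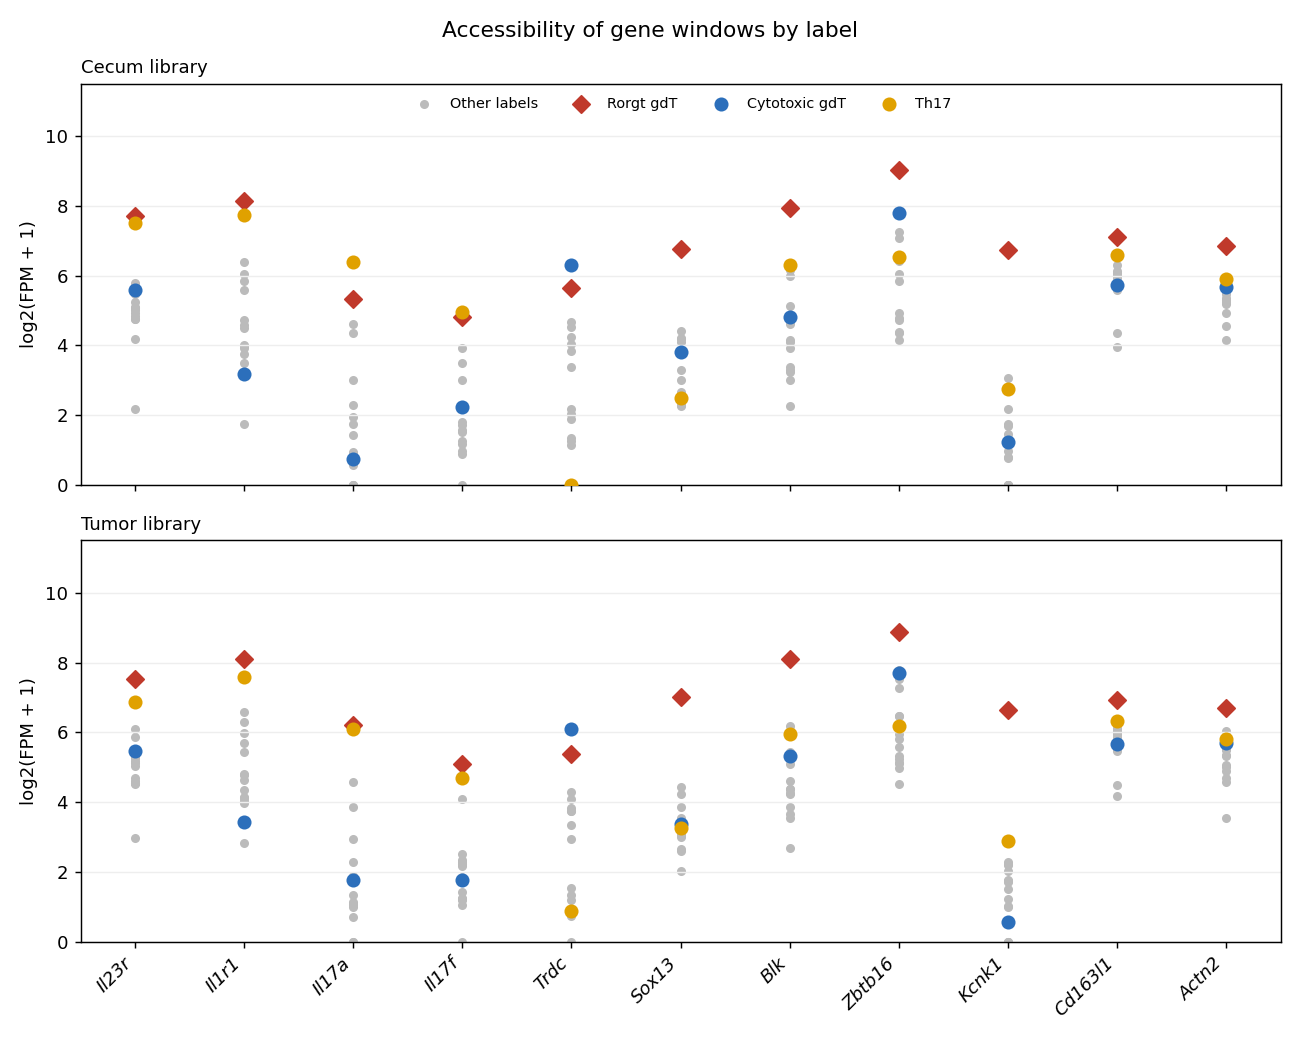
Each point is 1 label with at least 50 cells, with the 11 genes on the x axis and the log2 of FPM with 1 added on the y axis, the cecum library above and the tumor library below. Rorgt gdT (red diamonds) had the highest level of Il23r, Il1r1, Sox13, Blk, Zbtb16, Kcnk1, Cd163l1 and Actn2 in both libraries, whereas Cytotoxic gdT was higher for Trdc.

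The 12 listed regulators of the type 17 gamma-delta program are transcription factors, except for the kinase Blk. Of these 12, 4 were called higher than in Cytotoxic gdT (Sox13, Maf, Zbtb16 and Blk) and 0 lower. Of all 13618 genes tested, 2.95% were called higher and 1.8% lower. The list's median log2 ratio was 0.88 in cecum and 0.67 in tumor, beside -0.08 and -0.10 over all genes. Against Th17 3 of 11 tested were called higher (Sox13, Zbtb16 and Blk) and 0 lower, where 1.12% of 12376 genes were called higher and 0.501% lower. Over Th17, 5 of the 12 were higher and 4 lower in both libraries, with median log2 ratios of 0.10 and 0.07. The labels were made from RNA of these nuclei, and RNA of such genes may have entered them, so these values describe the label in a second readout.

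Sox13 (chr1:133382300-133424459), a factor of the gamma-delta lineage that is needed for interleukin-17-producing cells, separated Rorgt gdT cells from both comparators. It was at 108 FPM (94.8 to 123) in cecum and 129 FPM (115 to 146) in tumor. Cytotoxic gdT cells had 13.0 and 9.30 FPM and Th17 cells 4.59 and 8.55 FPM. Blk, a SRC family kinase with a role in the development of these cells, was at 246 and 274 FPM, against 26.9 and 38.6 FPM in Cytotoxic gdT and 78.1 and 60.7 FPM in Th17. Zbtb16, which encodes PLZF, the factor of innate-like T cells, was at 522 and 473 FPM, against 219 and 208 FPM in Cytotoxic gdT and 90.7 and 71.4 FPM in Th17.

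The factors shared with Th17 cells behaved differently. Maf, a factor of the interleukin-17 program, was at 105 and 112 FPM in Rorgt gdT cells, 24.3 and 17.9 FPM in Cytotoxic gdT cells and 121 and 116 FPM in Th17 cells. Rora, which encodes the related receptor RORa, was at 735 and 729 FPM, between Cytotoxic gdT (442 and 475 FPM) and Th17 (947 and 939 FPM). Ahr, the aryl hydrocarbon receptor, and Stat3, the signal transducer of interleukin-23, were not called in either comparison. Ahr was at 60.6 and 67.3 FPM and Stat3 at 306 and 296 FPM in Rorgt gdT cells.

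Among the 7 cytokine genes, 2 of 5 tested were called higher than in Cytotoxic gdT, Il17a and Il17f, where 2.95% of all genes tested were. Both met the minimum of 50 fragments through Rorgt gdT alone, and Il17a is a marker of the label, so this count is only a description. Rorgt gdT had 85 and 154 Il17a fragments and 58 and 70 Il17f fragments. Cytotoxic gdT had 2 and 10 and 11 and 10. Against Th17 0 of 5 were called, with 1.12% of all genes called higher and 0.501% lower. Il17f, the neighbour and partner of Il17a, was at 26.8 and 32.9 FPM in Rorgt gdT cells, at 29.9 and 24.8 FPM in Th17 cells and at 3.66 and 2.39 FPM in Cytotoxic gdT cells. Il22, another cytokine of type 17 cells, had 13 fragments in cecum (6.01 FPM) and 19 in tumor (8.94 FPM), against 17.2 and 17.5 FPM in Th17 cells. Areg, which encodes the repair factor amphiregulin, was at 12.9 FPM in cecum and 26.3 FPM in tumor, against 1.66 and 0.477 FPM in Cytotoxic gdT. Areg and Il22 had too few fragments for the count over Cytotoxic gdT.

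Of the 12 receptor genes, 3 were called higher than in Cytotoxic gdT (Il23r, Il1r1 and Il1rl1), 1 lower (Il12rb2), where 2.95% and 1.8% of all genes tested were. Against Th17 0 of 12 were called, where 1.12% of all genes were called higher and 0.501% lower. Il23r (chr6:67422932-67491855) encodes the specific chain of the interleukin-23 receptor. It was at 206 FPM in Rorgt gdT cells of cecum and 184 FPM in tumor, against 46.5 and 42.9 FPM in Cytotoxic gdT. Against Th17 (181 and 117 FPM) the log2 ratio was 0.18 in cecum (-0.08 to 0.45) and 0.65 in tumor (0.43 to 0.88). Il1r1, the interleukin-1 receptor, differed most from Cytotoxic gdT in this group, at 279 and 275 FPM against 7.98 and 9.78 FPM, with Th17 at 212 and 192 FPM.

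Il1rl1, the interleukin-33 receptor, was at 78.2 and 87.5 FPM, against 20.9 and 20.04 FPM in Cytotoxic gdT and 89.6 and 97.5 FPM in Th17. Il18r1 begins just past the end of Il1rl1, so the Il1rl1 window also counts fragments at the Il18r1 start. At the upstream Il1rl1 start with a RefSeq promoter, Rorgt gdT cells had 1 fragment in cecum and 0 in tumor. They had 0 and 1 at the other such start. The part of the Il1rl1 level that came from Il18r1 was not tested. Il12rb2, the specific chain of the interleukin-12 receptor, was lower in Rorgt gdT, at 52.3 and 47.5 FPM, against 136 and 137 FPM in Cytotoxic gdT. Il12rb1, the chain that both receptors share, was at 102 FPM in either library and Il2ra at 226 and 231 FPM. Both were highest in Rorgt gdT of all labels in either library, and the interval of the Il12rb1 lead over the next label included 0 in both.

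Most surface and signature genes of type 17 gamma-delta T cells were more accessible than in Cytotoxic gdT. Of 15 genes, 11 were called higher (2.95% of all genes) and 0 lower, with median log2 ratios of 1.60 and 1.43. Over Th17 Kcnk1 was the 1 gene called higher, where 1.12% of all genes were. In both libraries 10 of the 15 were at their highest level in Rorgt gdT cells of all labels, where this held for 2.6% of the 17355 genes tested. The list was chosen with earlier results of these data known, so these shares are given as a description. Tmem176a and Tmem176b lie next to each other and their windows share fragments, so they are not separate members.

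Kcnk1 (chr8:125993655-126030685), which encodes a potassium channel of the K2P family, was at 105 FPM in Rorgt gdT cells of cecum and 98.8 FPM in tumor. Cytotoxic gdT cells had 4 and 2 fragments (1.33 and 0.477 FPM), Th17 cells 5.74 and 6.41 FPM, and no other label exceeded 7.43 FPM. At 2000 fragments per cell it was expected in 17.8% and 17.5% of Rorgt gdT cells, 0.114% and 0.0591% of Cytotoxic gdT cells and 0.341% of cells of the other 14 labels in either library. The levels of cecum and the tumor did not differ beyond counting error (log2 ratio -0.09, -0.37 to 0.18).

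Ramp1 encodes a part of the receptor for the neuropeptide CGRP. It was at 145 and 147 FPM, against 11.97 and 8.83 FPM in Cytotoxic gdT and 57.4 and 76.1 FPM in Th17, and CCR7+ CD4 cells came closest at 116 and 118 FPM. Cd163l1 encodes the scavenger receptor SCART1, found on gamma-delta T cells. It was at 137 and 120 FPM, with Th17 next at 95.3 and 79.9 FPM. Sdc1, the heparan sulfate proteoglycan CD138, was at 66.1 and 57.4 FPM, against 15.3 and 17.7 FPM in Cytotoxic gdT. Actn2 was at 115 and 103 FPM, but within 1 kb of its ends its log2 ratio over Cytotoxic gdT turned to -0.0400 in cecum. Pxdc1 was at 86.0 and 59.3 FPM in Rorgt gdT, against 2.33 and 0.716 FPM in Cytotoxic gdT.

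**Figure D2:**
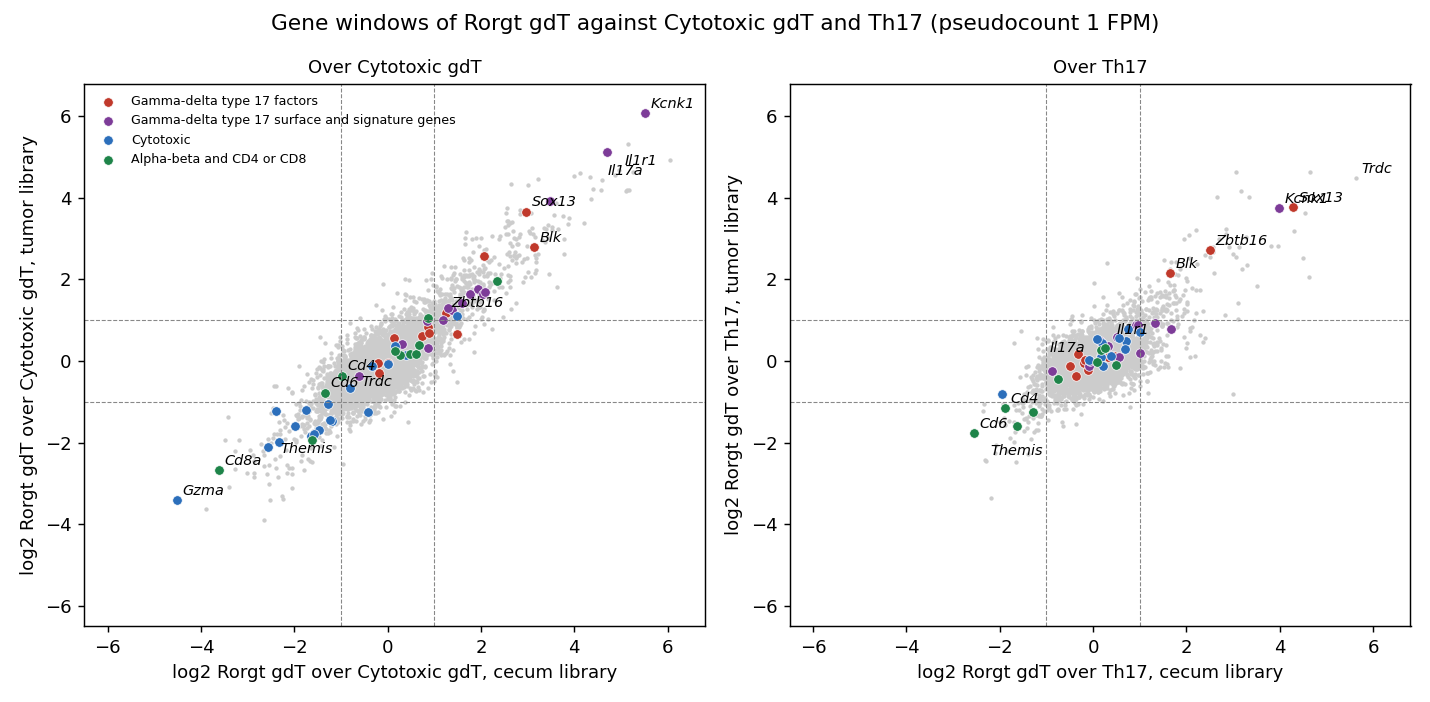
Each grey point is 1 gene, with the log2 ratio of Rorgt gdT over Cytotoxic gdT (left) or over Th17 (right) in cecum library on the x axis and in tumor library on the y axis, colors mark 4 gene lists, and dashed lines mark 2-fold. Kcnk1, Il1r1 and Il17a lie far above the lines over Cytotoxic gdT and Gzma and Cd8a far below, whereas over Th17 Il17a and Il1r1 lie between the lines and Trdc, Sox13 and Kcnk1 above them.

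The cytotoxic list had the opposite order. Of 19 tested genes, 12 were called lower than in Cytotoxic gdT and 1 higher (Klrc1), with median log2 ratios of -1.26 and -1.27, where 1.8% of all genes were called lower and 2.95% higher. Against Th17 0 of 12 tested were called, beside 1.12% of all genes higher and 0.501% lower. Of the 20 listed, 12 were higher than in Th17 and 1 lower in both libraries, with median log2 ratios of 0.48 and 0.16. Gzma, which encodes granzyme A, was at 3.70 and 9.41 FPM in Rorgt gdT cells and 106 and 109 FPM in Cytotoxic gdT cells. Tbx21, the factor of type 1 immunity, was at 57.4 and 55.5 FPM, against 141 and 116 FPM, and Ifng, its interferon target, at 13.9 and 11.3 FPM, against 43.2 and 41.5 FPM. Klrc1, which encodes the receptor NKG2A, was at 40.2 and 41.4 FPM, against 13.6 and 18.8 FPM. Of the others called lower, Prf1 (perforin) was at 19.4 and 20.7 FPM against 47.2 and 57.7 FPM, and Ccl5 at 19.9 and 28.7 FPM against 122 and 127 FPM. Gzmb, which encodes granzyme B, was not called in either comparison. The 300-base RefSeq window around its start was at 24.5 FPM in Rorgt gdT in both libraries. Cytotoxic gdT had 29.3 and 25.8 FPM there and Th17 10.3 and 15.0 FPM.

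The coreceptor and alpha-beta T cell list divided the comparisons. Against Th17, 4 of 9 tested genes were called lower (Cd4, Cd5, Cd6 and Cd28), where 0.501% of all genes were. Cd4 was at 21.7 and 31.0 FPM in Rorgt gdT, against 83.8 and 70.5 FPM in Th17. Cd6, a surface receptor that tunes T cell receptor signals, was at 30.1 and 43.3 FPM, against 180 and 150 FPM in Th17 and 77.5 and 74.7 FPM in Cytotoxic gdT. Against Cytotoxic gdT 2 of 11 tested were called lower, Cd8a and Cd8b1, whose windows lie close together, and Cd28 was called higher, where 1.8% and 2.95% of all genes were. Cd8a was at 4.62 and 8.94 FPM, against 68.1 and 62.7 FPM. Cd28, the costimulatory receptor, held a middle place at 60.1 and 52.7 FPM, against 10.97 and 12.9 FPM in Cytotoxic gdT and 188 and 161 FPM in Th17.

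Of 12 genes of tissue homing, 1 was called higher than in Cytotoxic gdT (Ccr6) and 2 lower (Ccr9 and Gpr15), where 2.95% and 1.8% of all genes tested were. Against Th17 0 of 11 were called, where 1.12% of all genes were called higher and 0.501% lower. Ccr6, the receptor for the chemokine CCL20, was at 38.4 FPM in cecum and 60.7 FPM in tumor, against 5.65 and 3.58 FPM in Cytotoxic gdT and 90.7 and 97.9 FPM in Th17. Ccr9, the homing receptor for the small intestine, was at 23.1 and 23.5 FPM, against 65.5 and 64.2 FPM in Cytotoxic gdT. Gpr15, a homing receptor of the large intestine, was at 5.09 and 3.76 FPM, against 25.9 and 30.8 FPM. Itga4, the alpha 4 integrin, was at 51.3 and 58.8 FPM, the lowest of all labels compared in both libraries.

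Markers of other cells were checked in the same way. The summed level of 6 B cell genes was 146 FPM in cecum and 170 FPM in tumor in Rorgt gdT cells, within the ranges of the other labels (137 to 226 and 141 to 207 FPM). That of 6 myeloid genes was 155 and 167 FPM, the lowest of the labels compared, and that of 10 epithelial genes was 104 and 119 FPM, within 87.2 to 207 and 102 to 217 FPM. That of 5 ILC3 genes was 239 and 173 FPM, rank 3 in cecum and 10 in tumor. Of 3 tested ILC3 genes Tnfsf11 was called higher than in Cytotoxic gdT, where 2.95% of all genes were, at 69.4 and 50.8 FPM against 16.95 and 19.8 FPM.

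Over all genes, those called most strongly against Cytotoxic gdT by the smaller ratio of both libraries were Kcnk1, Stac, Pla2g2d, Pxdc1, Il1r1, Sh2d4a, BC053393 and Il17a. Of these, Stac was at 70.3 and 77.2 FPM against 0.997 and 0.954 FPM, and Sh2d4a, an SH2 domain adaptor, at 88.3 and 65.4 FPM. BC053393 is shared with other type 17 and regulatory cells, at 87.4 and 73.4 FPM in Rorgt gdT and 72.3 and 86.8 FPM in Th17. The lowest were Car2, Gzma, Ccl3, Mctp2, Cers6, Tspan9, Cd8a and Scin, of which Tspan9 turned to log2 ratios of 0.31 and 0.29 within 1 kb of its ends. Car2, a carbonic anhydrase, was at 3.70 and 5.17 FPM against 69.1 and 74.9 FPM in Cytotoxic gdT, and Cers6, a ceramide synthase, at 25.9 and 29.6 FPM against 194 and 205 FPM.

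Against Th17 the highest were Sema6a, Trdc, Sox13, Kcnk1, Clnk, Cd93, Spry2 and Thbd. For Trdc, DNA removed by receptor rearrangement can also lower the count in Th17. Clnk, an adaptor of immunoreceptor signals, was at 130 and 143 FPM against 4.59 and 10.7 FPM. Spry2, an inhibitor of ERK signals, was at 41.2 and 35.3 FPM against 1.15 and 2.99 FPM. The lowest were Themis, Galnt9, Btla, Ms4a6c, St8sia1, Tmprss3, Mmp10 and Cd6. Themis, a signalling protein of alpha-beta thymocyte selection, was at 21.3 and 25.9 FPM in Rorgt gdT, against 110 and 144 FPM in Th17. Cytotoxic gdT cells had 117 and 140 FPM of Themis, so the low level was not shared by both gamma-delta labels. Btla, an inhibitory receptor, was at 11.1 and 5.65 FPM against 54.0 and 66.7 FPM in Th17.

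A stricter rule counted the genes at which Rorgt gdT stood apart, in which it had to lead every other label with at least 50 cells by 2-fold in both libraries. Of 17355 genes tested, 42 were led (0.242%). The 12 with the largest lead were Kcnk1, Sema6a, Zfp462, Plekhg1, Stac, Sh2d4a, Ptgs2, Sox13, A930033H14Rik, Rimbp2, Mtcl1 and Rhobtb1. A930033H14Rik lies within Rhobtb1 and their windows share fragments, so they are not separate members. Sema6a, a transmembrane semaphorin, was at 53.2 and 55.5 FPM, with Cytotoxic gdT next at 5.65 and 5.25 FPM. Zfp462, a zinc finger gene, was at 105 and 77.6 FPM, and no other label exceeded 13.8 and 9.11 FPM. Plekhg1, an exchange factor of small GTPases, was at 128 and 154 FPM against at most 16.1 and 23.3 FPM.

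Ptgs2, which encodes the prostaglandin synthase COX-2, was led at a low level, 17.6 and 15.995 FPM against at most 1.67 and 2.28 FPM. Rhobtb1 was at 161 and 155 FPM against at most 37.9 and 27.0 FPM. Within 1 kb of its ends the log2 ratio of Rhobtb1 in tumor turned to -0.00648 over Cytotoxic gdT and -0.34 over Th17. Rimbp2 was the one of the 12 with the most different levels in the tissues, at 36.1 FPM in cecum and 66.8 FPM in tumor, and within 1 kb of its ends its log2 ratio over Cytotoxic gdT turned to -0.45 in cecum.

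The segments of the T cell receptor loci give a view of the receptor that the labels did not name. They were counted with 500 bases on each side, and rearrangement can also remove or bring together DNA there. Trdv4 and Trgv6 encode the variable parts of a canonical receptor of interleukin-17-producing gamma-delta T cells. Trdv4 had 24 fragments in cecum (11.1 FPM, 7.11 to 16.5) and 31 in tumor (14.6 FPM, 9.91 to 20.7) in Rorgt gdT cells. Cytotoxic gdT cells had 4.32 and 5.25 FPM and Th17 cells 0 fragments in either library. Trgv6 was at 11.1 FPM (24 fragments, 7.11 to 16.5) and 6.12 FPM (13 fragments, 3.26 to 10.5), against 3.99 and 4.77 FPM in Cytotoxic gdT. Its log2 ratio over Cytotoxic gdT was 1.48 in cecum (0.42 to 2.61) and 0.36 in tumor (-0.77 to 1.44), so no difference was detectable in tumor at this depth. For Trgv4, another segment used by such cells, the ratio was 0.65 in cecum (-0.90 to 2.22) and 0.11 in tumor (-1.04 to 1.18), so none was detectable in either library.

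Trdv5 had the reverse order in cecum, and its interval included 0 in tumor. It was at 1.85 and 3.29 FPM in Rorgt gdT cells and 7.65 and 6.92 FPM in Cytotoxic gdT cells. Trdv1 had 2 and 1 fragments in Rorgt gdT cells (0.925 and 0.470 FPM), against 2.66 and 3.82 FPM in Cytotoxic gdT cells, with an interval of the ratio that included 0 in cecum. Trgv7 was at 18.0 and 23.1 FPM, the highest of all labels, with 13.6 and 10.5 FPM in Cytotoxic gdT, a log2 ratio of 0.40 in cecum (-0.27 to 1.07) and 1.14 in tumor (0.52 to 1.76). In cecum the next label, Innate-like T#1 at 14.6 FPM, lay inside the Rorgt gdT interval (12.8 to 24.7). Most of these counts are small, and reads of segments with near-identical copies cannot be split with certainty.

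Profiles of fragment ends around the gene starts show where the accessible sites lie. At Il17a, the highest 250-base bins of Rorgt gdT lay 0.125 kb before the start and 9.875 kb after it, and 5.125 kb before it came next. Th17 cells had 42.5 and 44.0 ends per 1000000 fragments in the bin after the start and 26.4 and 19.2 in the farther bin before it. In the bin 0.125 kb before the start, Rorgt gdT cells had 25.9 ends per 1000000 fragments in cecum and 49.9 in tumor. Th17 cells had 52.8 and 43.2 there, and Cytotoxic gdT cells 0 and 0.716. At Il23r the highest bin lay 8.625 kb into the gene, with 39.8 and 31.5 ends per 1000000 fragments in Rorgt gdT and 49.4 and 19.7 in Th17.

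At Sox13 and Kcnk1 the sites were nearly private to Rorgt gdT among these labels. The highest Sox13 bin lay 20.125 kb into the gene and held 28.2 ends per 1000000 fragments in cecum and 32.5 in tumor, with 0 in both Cytotoxic gdT and Th17. The Kcnk1 bin 16.125 kb into the gene held 19.9 and 18.3, again with 0 in both. Another Kcnk1 bin, 0.375 kb before the start, held 19.0 and 19.3.

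**Figure D3:**
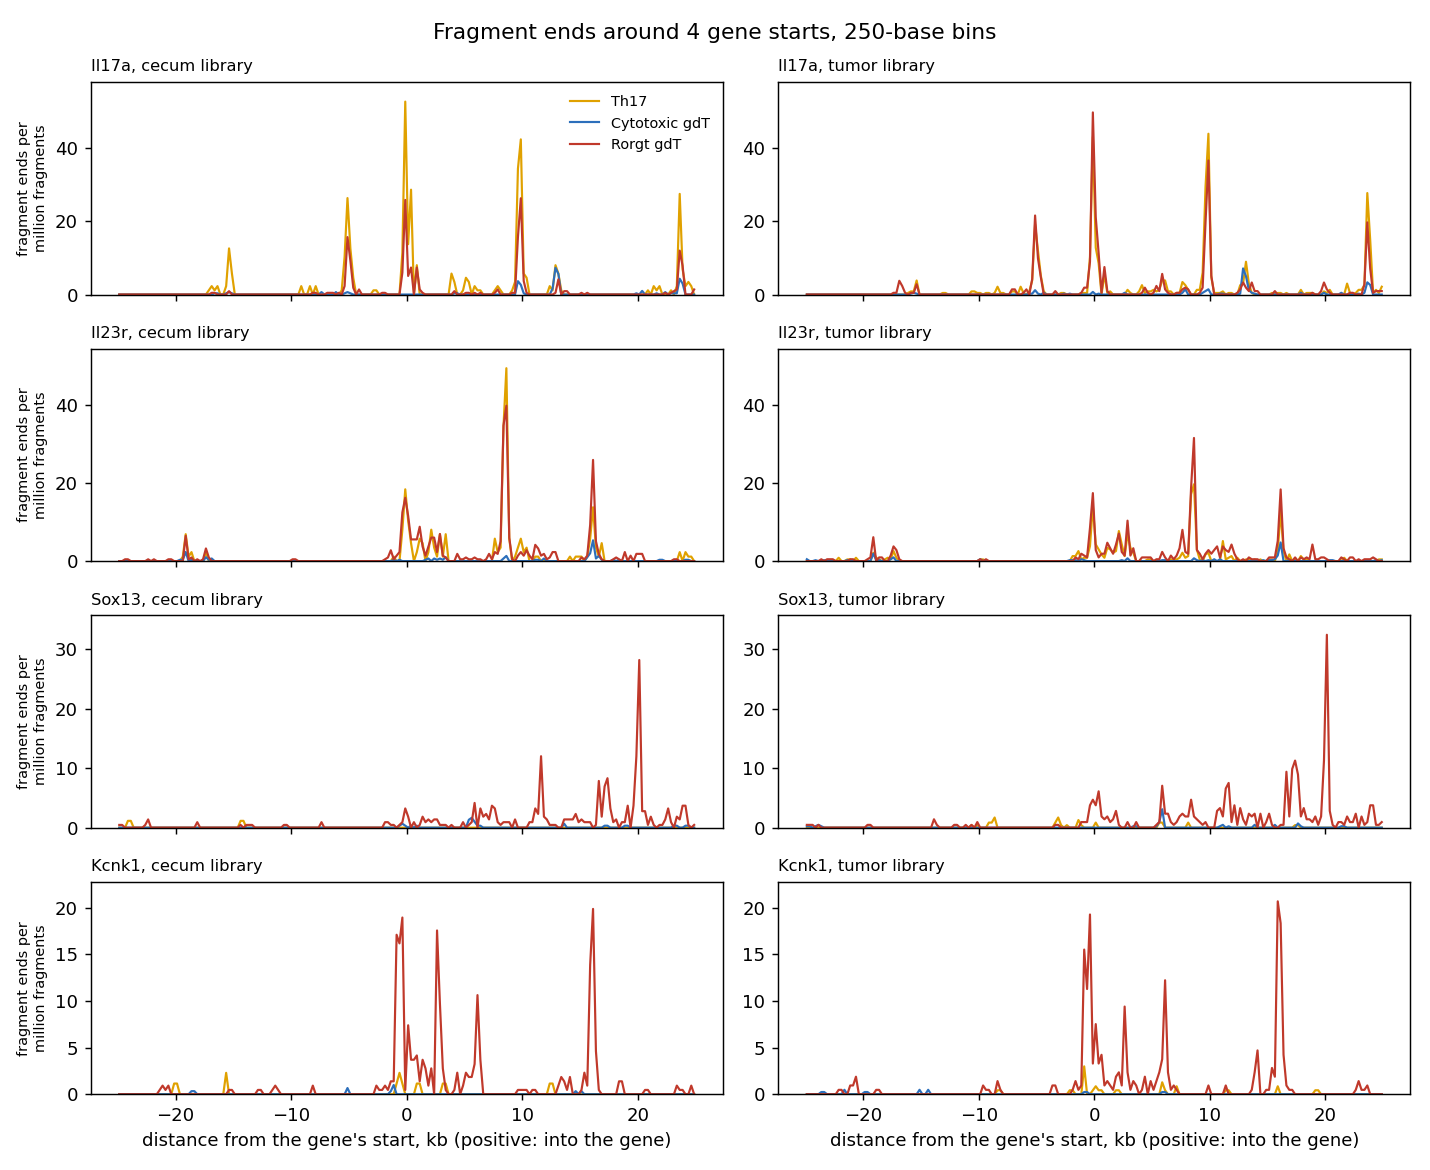
Lines give fragment ends per 1000000 fragments of a label in 250-base bins (y axis) by distance from the gene's start in kb (x axis) for Il17a, Il23r, Sox13 and Kcnk1 in cecum (left) and tumor (right) libraries, with no smoothing or error band. Rorgt gdT and Th17 share the peaks of Il17a and Il23r, whereas Sox13 and Kcnk1 have peaks in Rorgt gdT alone among the 3 labels.

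The 300-base RefSeq windows around the starts, whose upstream parts are printed above, were read in the same way. The Il17a window was at 18.5 FPM in cecum and 35.8 FPM in tumor in Rorgt gdT, against 0 and 0.477 FPM in Cytotoxic gdT and 41.3 and 31.6 FPM in Th17. The Il17f window was at 19.4 and 22.1 FPM, against 17.2 and 14.1 FPM in Th17. The Il23r window was at 17.1 and 13.2 FPM, with 0 fragments in Cytotoxic gdT in either library and 17.2 and 10.3 FPM in Th17. At the upstream start of Il1r1, printed above, Rorgt gdT had 21.7 and 21.6 FPM, against 5.74 and 6.84 FPM in Th17. At the other Il1r1 start with a window, Rorgt gdT had 3.24 and 2.35 FPM, against 3.44 and 4.70 FPM in Th17 and 4.20 and 5.50 FPM in IL10+ Treg. The printed Ccr6 window was at 2.78 and 2.82 FPM in Rorgt gdT, against 3.44 and 8.55 FPM in Th17.

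The letters TAGGTCA or TGGGTCA, a core of the ROR response element, were searched on both strands of these windows. TAGGTCA starts 67 bases before the Il23r start on its strand, and stands 44 bases before the printed Ccr6 start on the opposite strand. Of the 42 led genes, 29 had a RefSeq promoter window, and 0 of these held either word (upper limit 11.9%), against 6.79% of the 13844 tested genes with a window and 6.45% of all 32851 windows. The shorter AGGTCA, which is part of the first word, was in 2 of 29 (6.90%), against 16.2% of the tested genes. The led genes thus did not hold these words more often in this window. A match is not a binding site, and the intervals are wide with so few genes.

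Away from gene ends, 75303 tiles of 500 bases with at least 50 fragments over all labelled cells in each library were compared, each more than 2 kb from both ends of every annotated gene. A tile was led where Rorgt gdT had at least 4 times the level of all other labelled cells and 2 times that of every other label, again with 1 FPM added. Of the distal tiles 71 were led (0.0943%). Of 63101 tiles nearer to a gene end 17 were (0.0269%). The minimum was taken with Rorgt gdT included, so a tile could pass it through Rorgt gdT alone, and these shares are given as descriptions, with no comparison between them. With a minimum of 200 fragments 4 distal tiles were led. The led distal tiles had 7.40 to 64.7 FPM in cecum (median 18.0) and 7.06 to 47.0 FPM in tumor (median 17.9). Of the 71, 48 lay within a protein-coding gene and 23 between such genes. In the cecum 46 of them had the higher level and in tumor 25.

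With 1 FPM added, the tile with the highest lead over all other labelled cells together was chr5:125430501-125431000, within Dhx37, which encodes an RNA helicase. It had 140 fragments in Rorgt gdT cells of cecum (64.7 FPM, in 101 cells) and 100 in tumor (47.0 FPM, in 78 cells). All other labelled cells had 0.909 and 0.583 FPM, with 19.5 and 6.41 FPM in Th17 and 0 fragments in Cytotoxic gdT. A tile within Plekhg1, chr10:3832501-3833000, had 24.98 and 34.3 FPM, against 0.0478 and 0.167 FPM in all others. The tile within Sox13, chr1:133404001-133404500, is the site that stands out in the Sox13 profile, with 23.6 and 24.0 FPM in Rorgt gdT and 1 and 3 fragments in all other labelled cells together. From counts with nothing added, the log2 lead was 9.95 and 8.91 for the Sox13 tile and 9.03 and 7.69 for the Plekhg1 tile. It was 6.15 and 6.33 for the Dhx37 tile, so the order depended on the added FPM.

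Other tiles of the highest lead lay within Sh2d4a (chr8:68340501-68341000, 45.8 and 24.0 FPM) and Blk (chr14:63392501-63393000, 19.0 and 18.3 FPM). The remaining 3 of the 8 highest lay between genes. One, chr7:67844001-67844500, lay 84.5 kb from Synm, the nearest protein-coding gene, at 19.9 and 19.3 FPM. Another, chr12:70628501-70629000, lay 161 kb from Tmx1, at 22.7 and 20.2 FPM, and the third lay 78.3 kb from Ccdc112, at 22.7 and 33.4 FPM. With annotated genes of every kind included, the nearest gene end was 5.2, 6.04 and 9.17 kb from these tiles. In no led tile did a single cell give more than 5 fragments in tumor or 4 in cecum.

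Several led tiles fell in genes that were themselves high in Rorgt gdT, whose windows include the fragments of these tiles. Zbtb16 held 4, Blk and Sh2d4a 2 each, and Stac, Ramp1 and Il1r1 1 each. The Il1r1 tile, chr1:40225001-40225500, overlaps the upstream promoter printed above. Of the 71 led distal tiles 2 overlap a RefSeq promoter, this one and chr8:60954501-60955000 at Clcn3. Such tiles passed as distal because the distance was taken from the ends of gene spans. Epas1, which encodes the hypoxia-inducible factor HIF-2a, held 1 with 20.4 and 18.3 FPM.

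The mean over the led tiles was 20.2 and 18.3 FPM in Rorgt gdT, 4.53 and 3.88 FPM in Th17, 2.68 and 2.30 FPM in IL10+ Treg and 1.19 and 1.37 FPM in Cytotoxic gdT. Over all distal tiles the mean in Rorgt gdT was 4.70 and 4.65 FPM.

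**Figure D4:**
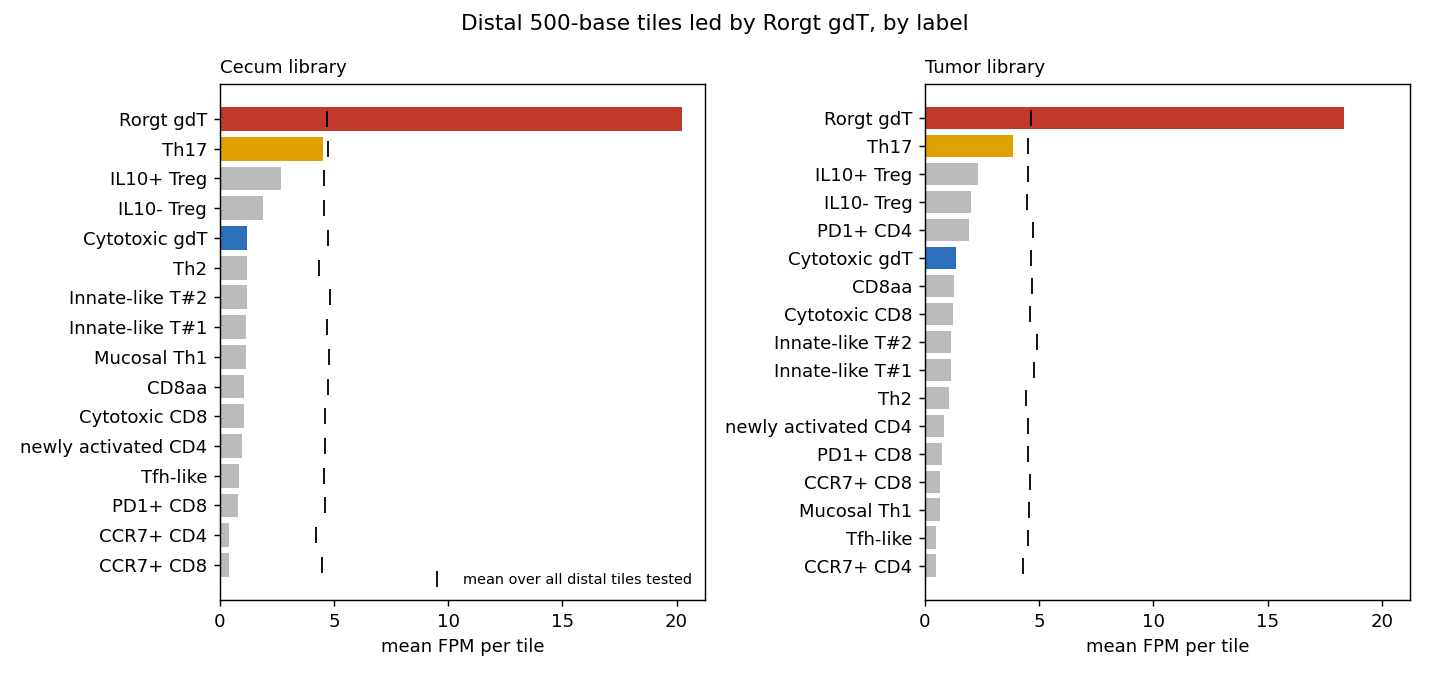
Bars give the mean FPM per tile (x axis) over the 71 distal tiles led by Rorgt gdT for each label with at least 50 cells (y axis), and the black marks give the mean over all distal tiles tested. The rule fixes that Rorgt gdT is highest, Th17 comes next in both libraries at 4.53 and 3.88 FPM, and Cytotoxic gdT is at 1.19 and 1.37 FPM.

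The likeness of whole profiles was described by the correlation of log2 levels, with 1 FPM added, across features, which are not replicates. Across genes Pearson's r with Th17 was 0.94 in cecum and 0.96 in tumor, and with Cytotoxic gdT 0.94 in both. Without cells above 3 times the median, the order of both labels turned in cecum, at 0.916 with Th17 and 0.920 with Cytotoxic gdT. In tumor the order stayed, at 0.949 and 0.924. Across distal tiles r with Th17 was 0.68 and 0.77, and with Cytotoxic gdT 0.61 and 0.62. Th17 was the most like label in tumor over both kinds of feature. In cecum, where Th17 had 131 cells, it came behind IL10+ Treg, Mucosal Th1 and IL10- Treg across genes and behind Mucosal Th1 and IL10+ Treg across distal tiles. Rorgt gdT of cecum and of the tumor had r of 0.97 across genes and 0.83 across distal tiles. Labels differ in depth, whose part in these values was not tested.

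Within Rorgt gdT few genes differed 2-fold between tumor and cecum. Of 13331 genes with at least 50 fragments over both libraries, 64 were called higher in tumor (0.48%) and 18 lower (0.135%), at 2-fold. The split depended on the window and the scaling, with 25 higher and 22 lower within 1 kb of gene ends and 139 higher and 15 lower when scaled by fragments near gene ends. With no minimum fold, the interval of the ratio lay above 0 at 1077 genes and below 0 at 1257, which covers counting error of 1 library per tissue. The median log2 ratio over all genes was -0.02. None of the 12 listed regulators, the 12 receptors or the 15 signature genes was called. Il17a was at 39.3 FPM in cecum and 72.4 FPM in tumor (log2 ratio 0.88, 0.49 to 1.28), under the 2-fold call, beside -0.28 (-0.69 to 0.14) in Th17 and -0.32 (-0.56 to -0.08) in all other labelled cells. The latter are a sum over labels whose mix differed between libraries. PD1+ CD4 had 14 cells in cecum and 616 in tumor, and Mucosal Th1 904 and 196. Ratios of this sum join shifts of mix and of accessibility, which were not separated. Areg had a ratio of 1.02 (0.35 to 1.73) from counts, and 0.97 with the pseudocount, so it was not called. Ccr6 had 0.66 (0.25 to 1.08), and Il23r had -0.16 (-0.36 to 0.04).

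Of the listed genes, Cx3cr1 and Gzmk were called higher in tumor. They were 1 of 11 tested homing genes and 1 of 16 tested cytotoxic genes, where 0.48% of all genes were called higher. At the Gzmk start the 300-base RefSeq window held 1 Rorgt gdT fragment in each library, and at the Cx3cr1 start 1 in cecum and 6 in tumor. Cx3cr1, the fractalkine receptor, was at 14.3 FPM in cecum and 37.2 FPM in tumor (log2 ratio 1.37, 0.76 to 2.02), and the ratio was 0.60 (0.52 to 0.68) in all other labelled cells. Gzmk, which encodes granzyme K, was at 13.4 and 32.9 FPM (1.30, 0.65 to 1.97), beside 0.03 (-0.06 to 0.11) in all other labelled cells. Neither call rested on a single cell, since the most fragments in 1 tumor cell were 6 of 79 for Cx3cr1 and 3 of 70 for Gzmk.

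By the interval bound nearest 0, the highest in tumor were Rab3b, Tpbg, Gcnt4, Tmem171, Slc44a5, Ly75, Cdh5 and Rnf152, of which Tmem171 turned to -0.46 within 1 kb of its ends. Ly75, which encodes the endocytic receptor DEC-205, had 58 fragments in cecum (26.8 FPM) and 141 in tumor (66.3 FPM), a log2 ratio of 1.31 (0.86 to 1.77), beside 0.51 in all other labelled cells and -0.10 in Cytotoxic gdT. Gcnt4, a glycosyltransferase, was at 5.09 and 20.7 FPM (2.02, 1.05 to 3.13), and Rnf152, a ubiquitin ligase, at 12.9 and 34.3 FPM (1.41, 0.76 to 2.09). Rab3b, a small GTPase of vesicle transport, was at 10.2 and 39.5 FPM, but 51 of its 84 tumor fragments came from 1 cell. Without that cell's fragments its ratio dropped to 0.63, below the call.

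The lowest in tumor were Eva1a, Veph1, Trank1, Il1rapl1, Ctnna2, Hoxa4, Ndst4 and Csf2ra, and single cells mattered more among them. Of the 51 Eva1a fragments in cecum 48 came from 1 cell, and of the 55 Trank1 fragments 45 did. Without the top cell of each library the log2 ratio of Trank1, with the pseudocount of 1 FPM, turned to 0.34. Within 1 kb of gene ends the ratios of Trank1 and Ctnna2 turned to 0.32 and 0.00782. Veph1 rested on more cells, with 61 fragments in 49 cells of cecum (28.2 FPM) and 9 in tumor (4.23 FPM), a log2 ratio of -2.74 (-3.93 to -1.72). Csf2ra, the alpha chain of the GM-CSF receptor, had the narrowest interval, at 161 FPM in cecum and 81.9 FPM in tumor (-0.98, -1.25 to -0.71), just short of 2-fold. Its ratio in all other labelled cells was -0.24 and in Th17 -0.25.

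For each called gene, the fragments of the cell with the most were then left out in both libraries, a check chosen after these values were seen. Of the 64 genes called higher 57 remained past 2-fold, and of the 18 called lower 14 did, among them Eva1a, which then had 3 fragments in cecum. In all other labelled cells together 1 of the 64 higher genes and 0 of the 18 lower genes were past 2-fold. With no minimum fold, 56 of the 64 were also higher in tumor in all other labelled cells, 48 in Th17 and 30 in Cytotoxic gdT. Of the 18, 9 were also lower in all other labelled cells, 10 in Th17 and 6 in Cytotoxic gdT. Over all genes the median log2 ratio was -0.02 in all other labelled cells, -0.002 in Th17 and -0.006 in Cytotoxic gdT. Genes of either direction were thus about equally frequent, and 30 of 64, 9 of 18 and 10 of 18 were close to that share. Genes were chosen by the difference in Rorgt gdT, so a smaller ratio elsewhere was partly fixed by the choice, and the differences between labels were not tested.

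**Figure D5:**
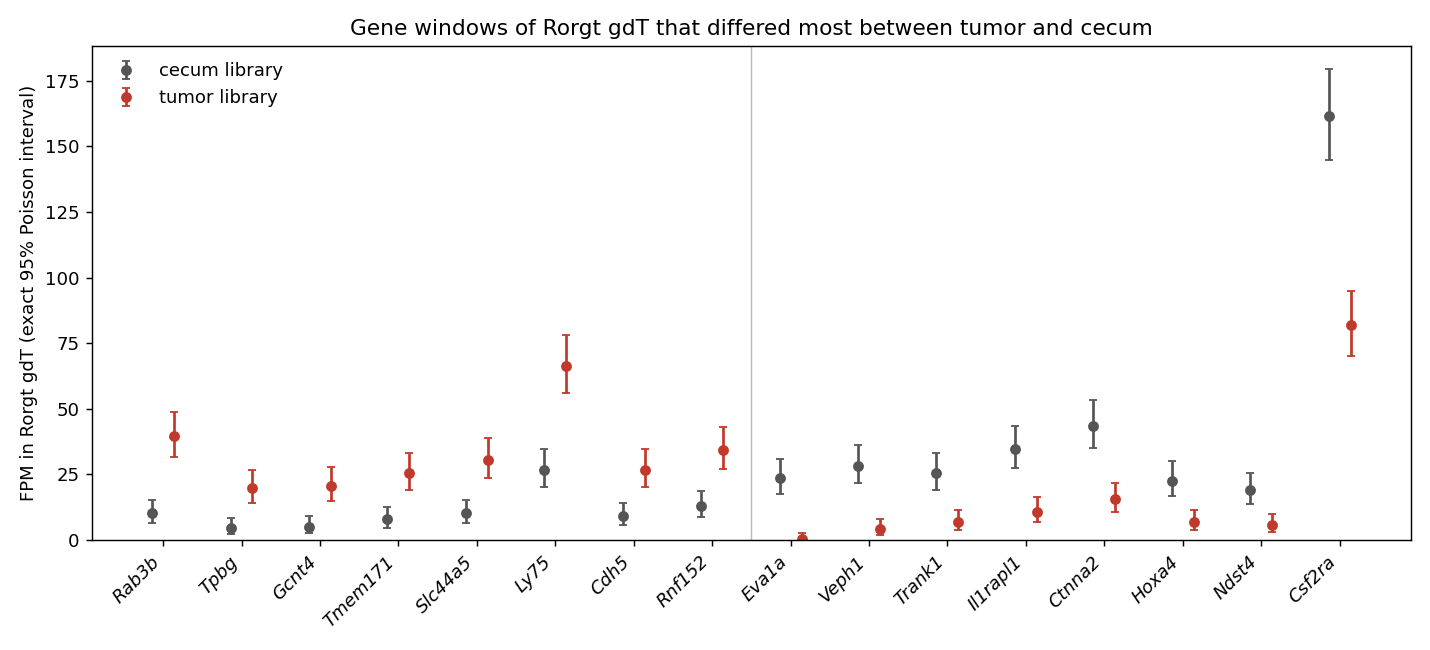
Points give the FPM in Rorgt gdT (y axis) in cecum (grey) and tumor (red) libraries with exact 95% Poisson intervals for the 8 genes chosen as highest (left) and the 8 chosen as lowest (right) in tumor (x axis). Csf2ra has the highest levels, 161 and 81.9 FPM, and the intervals of Rab3b, Eva1a and Trank1 do not show that 1 cell gave most of their fragments.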

How the data were processed

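The deposited ATAC files came from Cell Ranger ARC 2.0.0 with mm10, per their headers. A line holds 1 fragment, its barcode and a raw count of read pairs, deposited without normalization or filter. Per the study's methods, cells had to pass filters on both RNA and ATAC, were clustered on RNA, and passed their labels on to ATAC. The deposited annotation gives these labels. Doublets were not called here, and cells above 3 times the median fragment number of their library were left out as an alternative. The RNA counts were not analysed here. All labelled cells were found, with 43980981 fragments used in the cecum and 62118519 in the tumor.

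Each fragment was counted once per window if either end lay in it, and label totals were divided by the fragments of the label and multiplied by 1000000. Genes were 21883 protein-coding genes and 4 T cell receptor constant regions of the RefSeq table of GRCm38.p6. Ratios of single genes were made from counts with exact conditional intervals, and calls used a pseudocount of 1 FPM, which understates changes of genes with few fragments. The text names the listed genes it describes and, per comparison, the 8 highest and 8 lowest, the 12 most led and the 8 most led tiles. Neighbouring windows can share fragments. Some listed genes are not reported here. The members, gene lists and rules were chosen with earlier results of these data known. The window of 500 bases at receptor segments was chosen after seeing the annotation. The ROR element was searched in promoters only, since no genome sequence was used here. The alternatives were other windows, scaling, pseudocount, minimums, distances and cell filters, and the mean over cells. The counter and the ratios were tested on simulated data. Work was done in Python 3.11.15 with NumPy 2.4.6, SciPy 1.17.1, pandas 2.3.3, numba 0.67.0 and matplotlib 3.10.9.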

Additional observations from a re-analysis of the deposited data

Results flagged for a closer look

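At 4 genes the window was at least 2-fold lower in the tumor within Rorgt gdT and higher in the tumor in all other labelled cells together, with both intervals off 0. The log2 ratio of Veph1 was -2.74 in Rorgt gdT and 0.45 in the others, that of Mfap3l -1.43 and 0.47, that of Trank1 -1.85 and 0.32, and that of Rab27b -1.05 and 0.45. The difference between Rorgt gdT and the other cells was not tested, since each tissue had 1 library. The mix of labels among the other cells differed between libraries, so their ratios also hold shifts of that mix. For Trank1, 45 of 55 cecum fragments came from 1 cell, and for Rab27b 23 of 101 did. Without the cell with the most fragments their ratios with the pseudocount were 0.34 and -0.74, whereas those of Veph1 and Mfap3l were -2.52 and -1.29.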

How the results depend on the processing

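With 1 ATAC library per tissue there were no replicates to leave out. Depth limited the comparisons, since Th17 had 131 cells in cecum. No paired analysis was possible because each tissue had 1 library and no test was made. The labels do not say whether both libraries came from the same mice.

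Counts of called genes depended on the window and the minimum. Genes called higher than in Cytotoxic gdT went from 402 to 123 within 1 kb of either gene end, 650 with no minimum and 128 with a minimum of 200 fragments, and those called lower from 245 to 84 near gene ends and 106 at the minimum of 200. Against Th17 those higher went from 139 to 40, 312 and 41, and those lower from 62 to 6, 185 and 10. Led genes went from 42 to 9 near gene ends. For tumor over cecum, the 64 higher became 25 near gene ends, 139 when scaled by fragments near gene ends, 28 with a pseudocount of 5 FPM, 598 with no minimum and 2 at 200, and the 18 lower became 9 with 5 FPM, 311 with no minimum and 0 at 200. The 71 led distal tiles became 45 without cells above 3 times the median, 17 with 5 FPM, 4 at 200 fragments and 41 when over 10 kb from a gene end. Pearson's r with Cytotoxic gdT across distal tiles went from 0.61 to 0.55 without high cells and 0.53 at 200 in the cecum, and from 0.62 to 0.56 and 0.54 in the tumor. Of 212 values of single genes 10 reversed, each within 1 kb of gene ends: Actn2 over Cytotoxic gdT in the cecum (-0.0400), Rhobtb1 in the tumor over Cytotoxic gdT (-0.00648) and Th17 (-0.34), Rimbp2 over Cytotoxic gdT in the cecum (-0.45), Tspan9 over Cytotoxic gdT (0.31 and 0.29), Tmprss3 over Cytotoxic gdT in the tumor (0.39), and Ctnna2 (0.00782), Tmem171 (-0.46) and Trank1 (0.32) for tumor over cecum. Trank1 also reversed without the cell with the most fragments (0.34). The causes were not tested. Another 32 of the 212 values fell short of 2-fold there, 9 for the mean over cells and 2 without high cells, and no value did with at least 1000 fragments per cell or with the other scaling.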

Other observations

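Pdcd1, which encodes the inhibitory receptor PD-1, was called higher than in Cytotoxic gdT, at 191 FPM in cecum and 241 FPM in tumor against 64.5 and 79.9 FPM. In tumor its level in Rorgt gdT was the highest of all labels, with PD1+ CD4 next at 230 FPM (log2 ratio 0.07, -0.08 to 0.22), so the order of these was within counting error. Lag3, another inhibitory receptor, was at 43.5 and 57.9 FPM, the lowest of all labels compared in both libraries. Of the 11 listed inhibitory and activation genes Pdcd1 was the one called against Cytotoxic gdT, where 2.95% of all genes tested were called higher and 1.8% lower. Against Th17 0 of 11 were called, where 1.12% were called higher and 0.501% lower.

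Of the 9 AP-1 genes 0 were called in either comparison, a share near those over all genes, with median log2 ratios of 0.22 and 0.27 over Cytotoxic gdT. Of the 8 genes of Treg and Th2 cells 6 were tested over Cytotoxic gdT and 1 was called, Il5, which was higher, where 2.95% of all genes were. The RefSeq window around the Il5 start held 0 Rorgt gdT fragments in cecum and 1 in tumor. Of the 8, 3 were higher and 4 lower in both libraries, with median log2 ratios of -0.14 and -0.05.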
